A study of Mus musculus with 8 samples.

Results

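The 10 genes described here mark the developing and mature thalamus: Tcf7l2, Gbx2, Lhx2, Lhx9, Rora, Lef1, Calb2, Foxp2, Prox1 and Zic1. They were chosen by symbol, with their levels in these libraries known, and all 10 of 10 were found among the 23116 genes of the deposited table. The dLGN (dorsal lateral geniculate nucleus), which passes retinal input to the cortex, was microdissected from 8 mice labelled C57BL/6J, as postnatal day 27 and as kept in standard housing with no light stimulation. Of these, 4 are labelled wild type (WT 1 to WT 4) and 4 knockout (KO 1 to KO 4) for Fn14, a receptor for the cytokine TWEAK whose gene is Tnfrsf12a. The mice were littermates of both sexes, the nucleus was cut from coronal brain sections by eye, and each mouse gave 1 library of ribosome-depleted total RNA. The sex of each mouse and the part of Tnfrsf12a removed by the allele were not stated in the labels. Values are the authors' TPM (transcript abundance scaled by transcript length and to a common library total), so levels can be compared between genes. Depth per library is unknown, and no counting interval can be given.

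Thalamic neurons take on their identity after their last division under a small set of transcription factors. TCF7L2 and LEF1 are the nuclear partners of beta-catenin in Wnt signalling, and TCF7L2 maintains the postmitotic thalamic programme. GBX2 is a homeobox factor needed for thalamic differentiation and for thalamocortical axons, and LHX2 and LHX9 are closely related LIM-homeodomain factors of young thalamic neurons. RORA is an orphan nuclear receptor of sensory relay nuclei. FOXP2 is a forkhead repressor, PROX1 a homeobox factor and ZIC1 a zinc finger factor, each also used by neurons or other cells outside the thalamus. Calb2 encodes calretinin, a calcium-binding protein and not a transcription factor, so the label holds for 9 of the 10 genes.

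Libraries of the WT group stood apart from each other before any member was considered. Mbp, a main myelin protein gene, was above 1000 TPM in WT 1 and WT 2, at 11153 and 13566 TPM, while the next highest library, WT 3, was at 51.3 TPM and the other 5 lay below it. Dcx, a marker of young neurons, had 5.08 and 9.50 TPM in the same libraries, whereas the other 6 ranged from 368 to 619 TPM. In the mouse brain, myelin genes rise and Dcx falls after birth, so these profiles go against the single age on the labels, and whether the mice differed in age was not tested. The KO libraries all lay on the low-Mbp side, so what WT 1 and WT 2 contribute to a KO minus WT difference cannot be told apart from this split. Tnfrsf12a levels were 4.78, 5.48, 3.67 and 0.82 TPM in WT 1 to WT 4 and 2.95, 1.12, 1.32 and 1.86 TPM in KO 1 to KO 4. The value of the library labelled WT 4 was under that of every KO library and goes against its label. All of these levels were low, every KO library kept some transcript and depth is unknown, so they do not settle the genotype of any library. On the log2(TPM + 1) scale KO minus WT came to −0.63 (SE 0.43) for this gene, with an adjusted p of 0.452 in limma. Without WT 1 and WT 2 the difference was −0.09 (SE 0.46).

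The promoter sequences of 3 members are shown first, as the 250 bases before an annotated start, credited to RefSeq on GRCm38.p6. Tcf7l2 and Lhx2 were both low in WT 1, WT 2 and WT 3, with Tcf7l2 lowest in WT 3 and Lhx2 lowest in WT 1. Rora was high in WT 1 and WT 2 and lowest in WT 3. Capitals mark CG dinucleotides.
Tcf7l2 (chr19:55741560-55741809, plus strand): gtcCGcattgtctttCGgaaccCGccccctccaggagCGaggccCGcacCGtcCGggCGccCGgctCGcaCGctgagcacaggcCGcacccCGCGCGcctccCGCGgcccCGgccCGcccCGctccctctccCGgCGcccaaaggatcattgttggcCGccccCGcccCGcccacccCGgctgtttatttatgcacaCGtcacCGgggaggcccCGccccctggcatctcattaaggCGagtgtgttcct
Lhx2 (chr2:38339031-38339280, plus strand): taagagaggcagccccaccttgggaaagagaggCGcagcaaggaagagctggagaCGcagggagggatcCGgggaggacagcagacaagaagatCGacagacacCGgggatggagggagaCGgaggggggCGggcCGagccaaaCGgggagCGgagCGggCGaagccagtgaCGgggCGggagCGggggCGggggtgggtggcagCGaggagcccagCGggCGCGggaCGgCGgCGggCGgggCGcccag
Rora (chr9:68653536-68653785, plus strand): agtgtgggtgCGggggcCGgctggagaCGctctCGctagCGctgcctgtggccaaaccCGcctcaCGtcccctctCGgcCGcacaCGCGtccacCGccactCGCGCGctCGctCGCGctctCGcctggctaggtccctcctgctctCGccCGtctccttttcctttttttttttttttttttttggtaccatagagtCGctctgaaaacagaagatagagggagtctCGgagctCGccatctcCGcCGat
These windows hold 30, 25 and 26 CG dinucleotides, against a median of 6 (quartiles 2 and 16) over 32817 windows of the same length in the table. A promoter was listed for 8 of the 10 members, in 14 windows, with 4 to 30 CG dinucleotides each. On both strands of those 14 windows, none held the TCF/LEF word CTTTGAT, the homeodomain word TAATTA or the ROR element AGGTCA. Of all 32817 windows, 3.21% held the TCF/LEF word, 4.84% the homeodomain word and 14.0% the ROR element. TATAAA was present, on the reverse strand, in 3 of the 14 windows, belonging to Tcf7l2, Lef1 and Prox1. On either strand it was in 12.4% of all windows. The Tcf7l2 window that held it was another one (chr19:55895071-55895320), not the one printed above. These are counts of letters in a window and say nothing of binding.

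Tcf7l2 was the most abundant of the 10 genes, with a mean of 585 TPM over the 8 libraries. It lies on chromosome 19 from 55741820 to 55933654 on the plus strand (GRCm38). Replicates 1 to 4 held 249.5, 253, 43.4 and 1074 TPM in WT, and 665, 863, 529 and 1005 TPM in KO. WT 3 was far below the rest, at a level 24.7-fold under that of the library labelled WT 4, and the WT values enclosed the whole KO range. Within each library Tcf7l2 ranked 1 of the 10 in the library labelled WT 4 and in all 4 KO libraries, 3 in WT 1 and WT 2, and 5 in WT 3. The WT mean was 405 ± 457 TPM and the KO mean 766 ± 211 TPM (SD, n = 4 each), so the WT spread exceeded the WT mean.

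Lef1, the other TCF/LEF member (chromosome 3, 131110471 to 131224356, plus strand), had a different pattern. It had 76.6, 64.3, 12.4 and 55.8 TPM in WT, and 27.7, 45.2, 8.20 and 65.2 TPM in KO. WT 3 and KO 3 were low, and the groups overlapped. The ratio of Tcf7l2 to Lef1 was 3.26, 3.94 and 3.51 in WT 1 to WT 3, between 15.4 and 24.0 in the library labelled WT 4, KO 1, KO 2 and KO 4, and 64.5 in KO 3. In WT 1 and WT 2 the low ratios went with Tcf7l2 below every KO library and with high Lef1, and in WT 3 with low levels of both genes. The other genes of this family were rare, with Tcf7 at 2.39 to 6.42 TPM and Tcf7l1 at 1.57 to 5.66 TPM.

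Gbx2 (chromosome 1, 89927956 to 89931179, minus strand) was the least abundant member on average, with a mean of 32.0 TPM. It was at 10.8, 13.3, 4.68 and 49.7 TPM in WT and at 38.9, 46.5, 31.7 and 60.4 TPM in KO. WT 3 was lowest, WT 1 and WT 2 were next, and the library labelled WT 4 lay within the KO range. Its relative Gbx1 did not exceed 1.18 TPM in any library. Measured by the root mean square difference between profiles of log2(TPM + 1) over the 8 libraries, each centred on its own mean, Gbx2 was 1 of the nearest tested genes to Tcf7l2 (0.43). Irx2, an Iroquois homeobox gene, was nearer (0.32), and Gbx2 was followed by Irx1 (0.70), Sp9 (0.80) and Epha1 (0.80). For Gbx2 the nearest were Irx1 (0.32), Tcf7l2 (0.43), Epha1 (0.44), the uncharacterised Gm20554 (0.46) and Irx2 (0.47). Irx2 had 0.68 TPM in WT 3, 7.34 and 7.46 TPM in WT 1 and WT 2, and 24.3 to 38.7 TPM elsewhere.

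**Figure D1:**
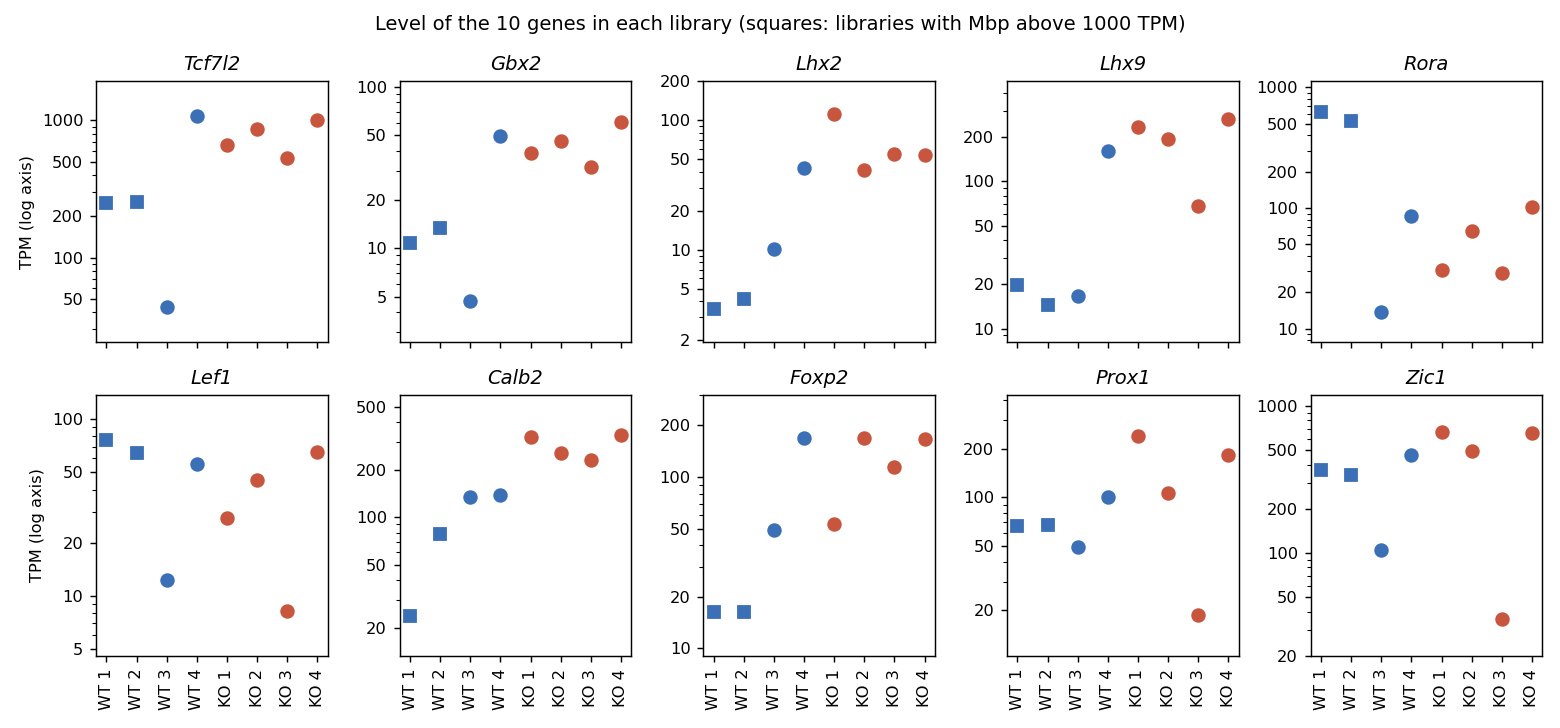
Level of each of the 10 genes in TPM (log axis) by library, WT in blue and KO in red, with 1 point per library and squares for the libraries with Mbp above 1000 TPM. WT 3 is lowest for Tcf7l2, Gbx2 and Rora, KO 3 is lowest for Lef1, Prox1 and Zic1, and for Calb2 all 4 KO points lie above all 4 WT points.

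The LIM-homeodomain genes Lhx2 and Lhx9 were low in 3 WT libraries and higher in the other 5 libraries. Lhx2 (chromosome 2, 38339281 to 38369733, plus strand) was at 3.47, 4.18, 10.1 and 42.5 TPM in WT and at 111, 41.1, 54.4 and 53.4 TPM in KO. The groups overlapped by a single WT library, the one labelled WT 4, which lay just above KO 2. Lhx9 (chromosome 1, 138825186 to 138848577, minus strand) was at 19.6, 14.5, 16.5 and 159 TPM in WT and at 234, 194, 68.4 and 267 TPM in KO. Again the library labelled WT 4 lay inside the KO range and the other WT libraries lay below it. Lhx9 exceeded Lhx2 in all 8 libraries, with a ratio of Lhx2 to Lhx9 between 0.177 in WT 1 and 0.795 in KO 3. KO 1, the highest library for Lhx2, also held the highest Neurod6 (140 TPM, against 0 to 21.3 TPM elsewhere), a gene of cortical and hippocampal neurons, where LHX2 is expressed too, and its part in the Lhx2 value was not tested.

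Among the nearest profiles to Lhx2 were those of the microRNA gene Mir708 (0.45), Rtn4rl2 (0.48), Mirlet7e (0.52) and Crabp1 (0.54). Those nearest to Lhx9 were Mirlet7e (0.39), Epha1 (0.55), Mir124a-2 (0.55), Rtn4rl2 (0.59) and Mir708 (0.63). Mir708, Mirlet7e and Rtn4rl2 were common to both sets. The 3 microRNA genes were listed at 0 in WT 1, WT 2 and WT 3, and how reads were divided between them and any host gene is not given.

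Of the other LIM-homeodomain genes, Lmx1a, Lmx1b and Lhx5 were highest in WT 3 and KO 3. Lmx1b, which specifies neurons of the midbrain, hindbrain and posterior hypothalamus, reached 34.1 and 30.9 TPM in WT 3 and KO 3 and at most 1.27 TPM elsewhere. Lmx1a, a relative with overlapping roles, was at 15.6 and 26.0 TPM in the same libraries and at most at 2.29 TPM elsewhere. Isl1, used by prethalamic and striatal neurons among others, reached 88.5 TPM in WT 3 and was between 0 and 27.5 TPM elsewhere, with 13.6 TPM in KO 3. Lhx5 had 26.0 and 18.8 TPM in WT 3 and KO 3, and Lhx1 was highest in KO 3 (46.4 TPM), followed by KO 2 (30.2 TPM) and WT 3 (27.3 TPM). Lhx6 was highest in WT 3 (18.3 TPM) and KO 1 (16.3 TPM). The cofactors of LIM-homeodomain proteins were more even among the low-Mbp libraries. Their 10 genes summed to 651 to 779 TPM there and to 330 and 345 TPM in WT 1 and WT 2, and included Ldb1, the main dimerising cofactor, at 65.4, 66.7, 123 and 111 TPM in WT and at 134, 107, 111 and 121 TPM in KO.

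Rora was highest in WT 1 and WT 2. It lies on chromosome 9 from 68653786 to 69388246 on the plus strand. It was at 628, 529, 13.9 and 85.7 TPM in WT and at 30.6, 64.2, 29.1 and 101 TPM in KO. Both high-Mbp libraries lay above the other 6, whose highest was KO 4, and WT 3 was lowest, so the 45.3-fold range of Rora was the widest of the 10 members and was spanned within the WT group. Rora ranked 1 of the 10 in WT 1 and WT 2, and between 7 and 9 in the other 6 libraries. Rorb, a relative also found in sensory relay neurons, had the same high libraries, with 103, 71.0, 18.5 and 39.7 TPM in WT and 21.8, 35.3, 23.6 and 48.6 TPM in KO. The ratio of Rora to Rorb was 6.12 and 7.45 in WT 1 and WT 2 and between 0.748 and 2.16 in the other 6.

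**Figure D2:**
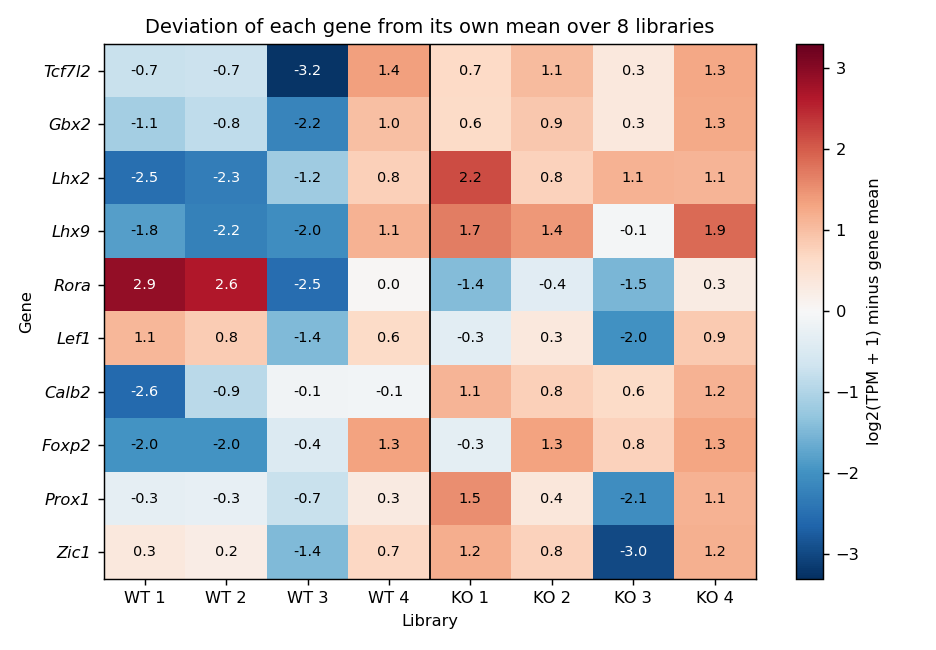
Deviation of log2(TPM + 1) from the gene's own mean over the 8 libraries, with genes in rows and libraries in columns, red above and blue below the mean. WT 3 is below the mean for all 10 genes, Rora is 2.89 above it in WT 1, and Zic1 is 2.97 below it in KO 3.

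Foxp2 (chromosome 6, 14901349 to 15441977, plus strand) followed the split between libraries with Rora's direction inverted. It was at 16.4, 16.2, 48.8 and 168 TPM in WT and at 53.0, 168, 114 and 167 TPM in KO. WT 1 and WT 2 lay below the other 6 libraries, and WT 3 and KO 1 were the lowest of those. Foxp4, a relative, had 16.6 and 18.9 TPM in WT 1 and WT 2, while the other 6 ranged from 27.8 to 46.6 TPM. Foxp3 was at most at 3.23 TPM, and Foxp1 was not analysed here.

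Prox1 and Zic1 were lowest in KO 3 and highest in KO 1. Prox1 (chromosome 1, 190118035 to 190170714, minus strand) was at 66.5, 67.5, 49.1 and 101 TPM in WT and at 239, 106, 18.8 and 183 TPM in KO. The KO range enclosed the WT range. Zic1 (chromosome 9, 91358058 to 91365810, minus strand) was at 365, 342, 105 and 467 TPM in WT and at 664, 492, 35.9 and 652 TPM in KO. Its low libraries were WT 3 and KO 3, and the KO range again enclosed the WT range.

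Zic2, Zic4 and Zic5 were also lowest in KO 3. Zic4 overlaps Zic1 on the opposite strand in the annotation, from 91362413 to 91389348, and strand use in counting is not given, so reads of the pair may have been mixed. Zic4 was at 19.4, 16.7, 35.6 and 109 TPM in WT and at 248.9, 146, 6.92 and 191 TPM in KO. The ratio of Zic4 to Zic1 was 0.0532 and 0.0487 in WT 1 and WT 2 and between 0.193 and 0.375 in the other 6, so Zic4 was low in the high-Mbp libraries where Zic1 was not. Zic2, on another locus, was at 59.4, 64.9, 48.5 and 118 TPM in WT and at 318, 197, 13.4 and 198 TPM in KO. Zic5 was lower in level, at 1.38 TPM in KO 3 and at 63.1 TPM in KO 1, its lowest and highest libraries. Zic1 is also made by meningeal cells, whose 14 markers summed to between 351 and 877 TPM in WT and between 257 TPM in KO 3 and 1095 TPM in KO 4. Ptgds, the most abundant of them, was at 239.7, 431, 422 and 56.4 TPM in WT and at 136, 99.8, 57.0 and 257 TPM in KO. Col1a1, a defining collagen of that list, was at 21.4 to 81.0 TPM in WT and at 208, 128, 41.7 and 201 TPM in KO. None of these markers was at 0 in every library, and their part in the Zic1 values was not tested.

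Calb2 (chromosome 8, 110137502 to 110168210, minus strand) was the single member whose groups did not overlap. It had 23.9, 78.5, 135 and 137 TPM in WT, and 322, 253, 229 and 330 TPM in KO. The lowest KO library, KO 3, was above the highest WT library, and WT 1 and WT 2 lay below the other 6. The WT mean was 93.7 ± 53.9 TPM and the KO mean 283 ± 50.1 TPM (SD, n = 4 each). Of all 15967 genes tested, 2.42% had every KO library above every WT library and 0.921% had the reverse, and Calb2 was chosen with these values known. Calbindin, the related calcium-binding protein encoded by Calb1, was at 38.8, 55.1, 45.2 and 27.8 TPM in WT and at 32.2, 23.7, 28.6 and 24.5 TPM in KO. Pvalb, for parvalbumin, had 11.9 and 15.9 TPM in WT 1 and WT 2 and at most 1.93 TPM elsewhere.

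No member passed in the comparison of KO with WT. That comparison asks which transcripts differ in the dLGN without Fn14, and limma on log2(TPM + 1) passed 0% of 15967 genes at an adjusted p of 0.05, with 851 higher (5.33%) and 372 lower (2.33%) in KO at an unadjusted p under 0.05. After quantile normalization those counts were 750 and 555. With array weights, 10376 of the 15967 genes passed, and 7 members were among them, so passing did not set the members apart from most genes. These weights were near 0 for WT 3 and for the library labelled WT 4, and were 1.71 for WT 1 and 3.43 for WT 2. The WT side of that fit rested mainly on the high-Mbp libraries, so its differences cannot be told apart from the split by Mbp. Members were chosen with the comparison of KO with WT in view, so the following values, from the fit without weights, describe them. The log2 difference was above 0 for 8 members and below 0 for 2, with a median of 1.55 beside 0.10 for all genes tested, and Zic1 turned to −0.03 with TMM (trimmed-mean) scaling factors. Lhx2 stood at 2.58 (SE 0.70), Lhx9 at 2.47 (SE 0.78), Calb2 at 1.85 (SE 0.51), Tcf7l2 at 1.66 (SE 0.83), Gbx2 at 1.57 (SE 0.59) and Foxp2 at 1.53 (SE 0.75). All of these had an adjusted p of 0.429. Prox1 stood at 0.50 (SE 0.72), Zic1 at 0.09 (SE 0.96), Lef1 at −0.56 (SE 0.73) and Rora at −1.52 (SE 1.14), with adjusted p in limma of 0.697, 0.964, 0.666 and 0.475.

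Several of these differences were smaller without WT 1 and WT 2, which leaves WT 3 and the library labelled WT 4 against 4 KO libraries. Lhx2 then stood at 1.48 (SE 0.60), Lhx9 at 1.69 (SE 0.93), Calb2 at 1.04 (SE 0.18) and Foxp2 at 0.33 (SE 0.63). Tcf7l2 stood at 1.77 (SE 1.13) and Gbx2 at 1.38 (SE 0.79), values that rest on WT 3, since the library labelled WT 4 was above all KO libraries for Tcf7l2 and within their range for Gbx2. Rora turned to 0.48 (SE 0.79) and Lef1 to 0.12 (SE 0.89), Prox1 was at 0.46 (SE 0.98) and Zic1 at 0.42 (SE 1.29). All 10 members were then above 0, with a median of 0.76 beside −0.003 for all genes, and none passed (smallest adjusted p in limma 0.765, for Calb2). Without WT 3 alone, Tcf7l2 moved to 0.86, Gbx2 to 1.11 and Rora to −2.61. Without the library labelled WT 4, Tcf7l2 moved to 2.40, Gbx2 to 2.16, Lhx2 to 3.27, Lhx9 to 3.26 and Foxp2 to 2.23. Rora was at −0.81 without WT 1 and at −0.89 without WT 2. Prox1 was at 0.07 without KO 1, 0.20 without KO 4 and 1.27 without KO 3. None of these passed in limma. Without the 2 libraries low in Zic1, WT 3 and KO 3, the difference was 1.03 for Tcf7l2 and 1.11 for Prox1, a setting chosen after the values were seen.

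**Figure D3:**
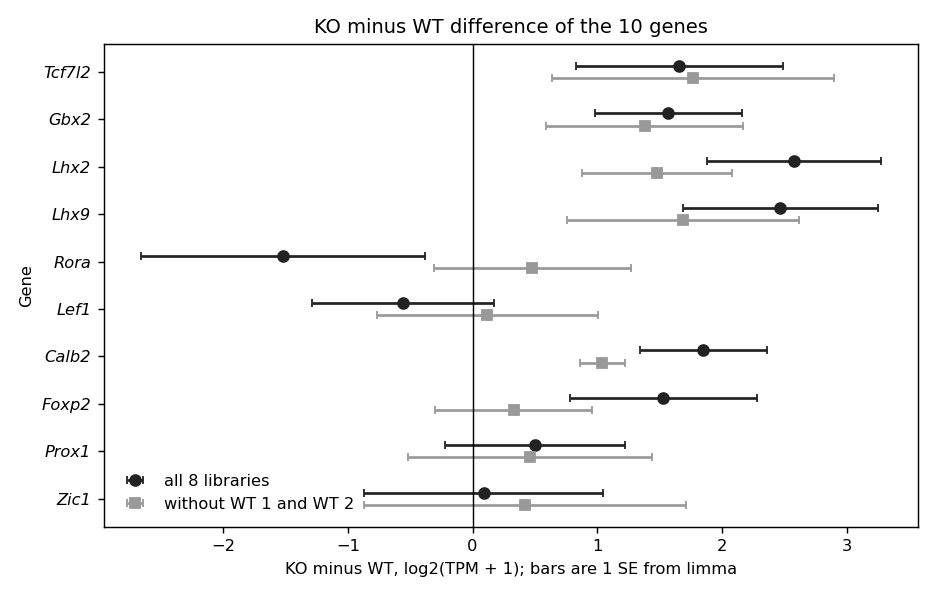
KO minus WT difference on the log2(TPM + 1) scale with 1 SE from limma, for all 8 libraries (black circles) and without WT 1 and WT 2 (grey squares). Lhx2 and Lhx9 are highest with all libraries at 2.58 and 2.47, and Rora moves from −1.52 to 0.48.

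Among the 6 low-Mbp libraries, WT 3 was the lowest or second lowest for all 10 members and the lowest for 7 of them, and KO 3 was the lowest for Lef1, Prox1 and Zic1. The summed level of the 10 genes was 439 TPM in WT 3 and 1119 TPM in KO 3, while the other low-Mbp libraries held 2274 to 2884 TPM and WT 1 and WT 2 held 1460 and 1382 TPM. In a dissected piece, fewer cells of a type and less RNA per cell cannot be told apart. Markers of GABAergic neurons of the ventral lateral geniculate and reticular nuclei, which border the dLGN, summed over 23 genes to 993 TPM in WT 3 and 912 TPM in KO 3. In the other 6 libraries they summed to between 379.7 TPM in WT 1 and 700.3 TPM in KO 2. Gad1, which makes GABA, reached 184 and 240 TPM in WT 3 and KO 3, above its 59.6 to 178 TPM elsewhere. The next most abundant genes of the list did not set those libraries apart. Gad2, which also makes GABA, had 95.3 and 111 TPM there and was highest in WT 2 (139 TPM), and Slc32a1, the vesicular GABA transporter gene, had 85.6 and 121 TPM there and 102 TPM in WT 2. Tac1, a neuropeptide gene of the habenula list, was at 87.7 and 76.7 TPM in WT 3 and KO 3 and at most at 15.5 TPM elsewhere. The more abundant genes of that list did not follow it. Lrrc55 had 29.6 and 24.6 TPM there and 34.3 to 63.4 TPM in the other low-Mbp libraries. Vav2 had 32.7 and 44.5 TPM there and 29.9 to 51.6 TPM in those others. The habenula list summed to 213 and 224 TPM in WT 3 and KO 3 and to 131 to 284 TPM in the other low-Mbp libraries. Astrocyte markers, 10 of 15 analysed, summed to 1064 and 1002 TPM there and to 572 to 685 TPM in the other low-Mbp libraries, but were highest in WT 1 and WT 2 at 3200.0 and 3061 TPM. Among them was Slc1a3, a glutamate transporter, with 279 and 159 TPM in WT 3 and KO 3 and 191 and 203 TPM in WT 1 and WT 2. The part of neighbouring tissue in the low member levels of WT 3 and KO 3 was not tested.

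Other markers of dLGN relay neurons were highest in WT 1 and WT 2, where Lhx2, Lhx9, Gbx2 and Tcf7l2 were low. Of 25 fixed, 23 were analysed, and they summed to 6967 and 5854 TPM in WT 1 and WT 2 and to 774 to 2330 TPM in the other 6, lowest in WT 3 and next lowest in KO 3. For 18 of the 23, both high-Mbp libraries lay above the other 6, as for 22.5% of all genes tested, and this split was known when the genes were chosen. Slc17a6, the vesicular glutamate transporter that thalamic relay neurons use, was present in all libraries at 440.5, 382, 169 and 242 TPM in WT and at 168, 283, 224 and 361 TPM in KO. Cplx1, a complexin of mature terminals, had 1315 and 1090.5 TPM in WT 1 and WT 2 and 33.3 to 95.1 TPM elsewhere. Kitl, the ligand of the Kit receptor, split the libraries differently, with 33.6 and 67.2 TPM in WT 3 and KO 3 and 234 to 623 TPM elsewhere. In limma 2 of the 23 were above 0 and 21 were below it. Their median log2 difference was −1.23, or 0.26 when WT 1 and WT 2 were left out, and none passed. All genes tested had medians of 0.10 and −0.003 in those fits.

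A further list of transcription factors of the thalamus had 28 of 30 genes analysed and 26 tested. Of these, 24 were above 0 in KO and 2 were below it. Their median was 0.77, or 0.26 when WT 1 and WT 2 were left out, and none passed. All genes tested had medians of 0.10 and −0.003 in those fits. In WT 1 and WT 2, 11 of the 26 were below all other libraries, against 40.5% of all genes tested. Id4, an inhibitor of basic helix-loop-helix factors, was at 159, 151, 215 and 350.2 TPM in WT and at 571, 333, 199.5 and 445 TPM in KO. Nr2f1, a nuclear receptor that patterns sensory areas, was at 139.9, 117, 96.5 and 215 TPM in WT and at 211, 258, 119 and 307 TPM in KO. WT 3 and KO 3 were the lowest of the low-Mbp libraries for Nr2f1 and, with KO 3 lower, for Zic2.

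**Figure D4:**
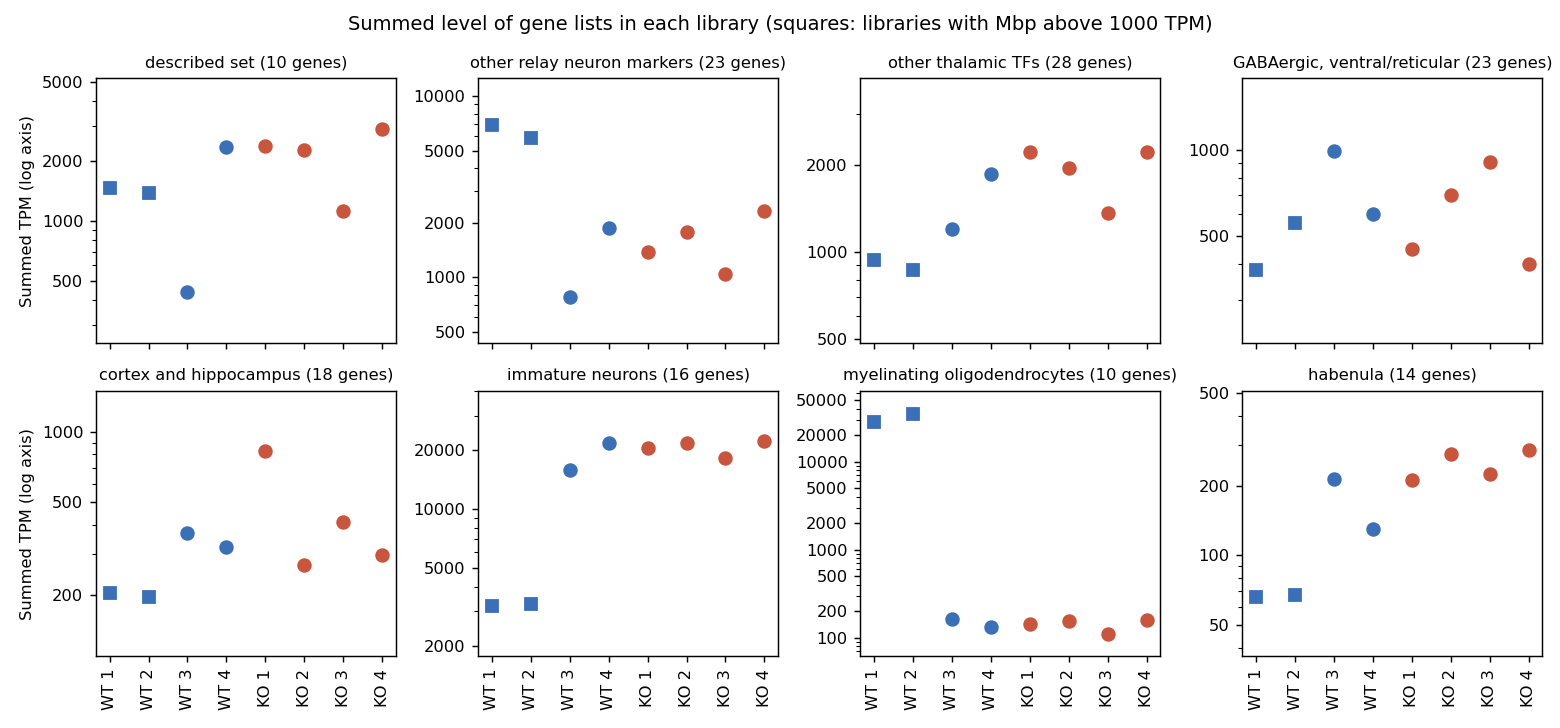
Summed TPM (log axis) of the 10 described genes and of 7 other lists by library, WT in blue and KO in red, with squares for the libraries with Mbp above 1000 TPM. Other relay neuron markers are highest in WT 1 and WT 2 at 6967 and 5854 TPM, and GABAergic markers are highest in WT 3 and KO 3 at 993 and 912 TPM.

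Genes of the Wnt pathway, which TCF7L2 and LEF1 serve, were described as a list of 72. Of these, 70 were analysed and 63 tested, and they summed to 3239 to 3835 TPM in WT and 3808 to 4458 TPM in KO. Ctnnb1, which encodes beta-catenin, was at 783, 736, 593 and 701 TPM in WT and at 749, 812, 530 and 884 TPM in KO, a log2 difference of 0.06 (SE 0.20). WT 3 and KO 3 were its lowest libraries as well. Csnk1a1, a kinase of the beta-catenin destruction complex, stood at 0.23 (SE 0.13) and the corepressor gene Aes at −0.31 (SE 0.19). Axin2, a widely used Wnt target chosen after its values were seen, was at 20.8, 21.4, 37.9 and 35.2 TPM in WT and at 37.3, 36.4, 24.9 and 39.4 TPM in KO. WT 3, lowest in Tcf7l2, was not low in Axin2, while KO 3 was the lowest of the low-Mbp libraries for Axin2. Any link of Tcf7l2 to Axin2 was not tested. Over the list 47 genes were above 0 and 16 were below it. The median was 0.29, or 0.11 when WT 1 and WT 2 were left out, and none passed. All genes tested had medians of 0.10 and −0.003 in those fits.

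Several members are also made by cells other than relay neurons, and the markers of those cells are given beside them. Tcf7l2 marks newly formed oligodendrocytes, whose 12 analysed markers of 15 summed to 796 and 869 TPM in WT 1 and WT 2 and to 401 to 550.4 TPM in the other 6, where Tcf7l2 reached its highest levels. Enpp6, a defining gene of that stage chosen after its values were seen, had 50.9 and 60.2 TPM in WT 1 and WT 2 and at most 0.70 TPM elsewhere. Lef1 is made by brain endothelial cells, whose 17 analysed markers of 18 summed to 438 to 557 TPM in WT and 443 to 522 TPM in KO. In WT 3 and KO 3, where Lef1 was lowest, they summed to 491.5 and 443 TPM, and KO 3 was the lowest KO library. Cldn5, a tight junction gene, was at 82.5 and 85.4 TPM in WT 3 and KO 3. Prox1 marks granule cells of the dentate gyrus, and markers of cortical and hippocampal neurons, 18 of 20 analysed, summed to 831 TPM in KO 1, the highest library for Prox1, and to 196 to 410 TPM in the others. Calb2, Lhx2, Lhx9 and Gbx2 are made in or near the habenula as well, whose 14 analysed markers of 16 summed to 66.4 to 213 TPM in WT and 212 to 284 TPM in KO. Of its 13 tested genes 12 were above 0, their median was 1.17, or 0.69 when WT 1 and WT 2 were left out, and none passed. All genes tested had medians of 0.10 and −0.003 in those fits. Foxp2, Rora and Zic1 are also made in the cerebellum, whose 12 analysed markers of 14 summed to 119 to 191 TPM in WT and 118 to 186 TPM in KO. The choroid plexus marker Ttr ranged from 0.24 to 94.8 TPM in WT and from 19.1 to 404 TPM in KO, highest in KO 1. Over the 12 analysed choroid plexus markers of 13, the sums were highest in WT 2. They ranged from 92.4 to 624 TPM in WT and from 115 to 546 TPM in KO. The part of these cell types in the member values was not tested.

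Markers of young neurons and of myelin moved with the split that Rora, Foxp2, Lhx2 and Calb2 follow. Astrocyte markers did so only in part. Of 10 astrocyte genes, 6 lay above and 2 lay below the other 6 libraries in both WT 1 and WT 2. In WT 1 and WT 2, 16 of 17 young neuron genes summed to 3191 and 3253 TPM, and the other 6 held 15890.0 to 22260.0 TPM. Over 10 of 18 myelin genes the sums were 27890.0 and 35140.0 TPM, and 111 to 164 TPM in the other 6. Of the 10 members, 1 (Rora) lay above and 3 (Lhx2, Calb2 and Foxp2) lay below the other 6 in both high-Mbp libraries, where 22.5% and 40.5% of all genes tested did so, and 6 overlapped. For Tcf7l2, Gbx2, Lhx9 and Prox1 the overlap came from WT 3 or KO 3, which reached the level of WT 1 and WT 2 or lay below it. Zic1 in WT 1 and WT 2 lay inside the range of the other 6, and Lef1 lay just under and above the highest of them, KO 4. The split of libraries by Mbp was drawn from measured values and was not tested.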

How the data were processed

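RNA of the dLGN of 8 mice (4 labelled Fn14 WT, 4 labelled Fn14 KO) was analysed from 1 deposited table of TPM values, which the authors made and which its sheet name calls TPM. BWA, edgeR 3.14.0 and the builds GRCm38 and mm10 are named in the submitters' processing notes, with no role given, and the labels state neither the annotation nor the use of strand. The authors' group means were not used. The TPM summed to 968958 to 997426 per library, and depth is unknown. The 15967 of 23116 genes whose mean reached 1 TPM were tested as log2(TPM + 1) with limma 3.58.1 in R 4.3.3 (trend and robust, no covariate, two-sided, Benjamini-Hochberg over all genes). The fit was tested on simulated data. The members, 16 other lists and tests were chosen with earlier results of these data known. Named genes were the members, Tnfrsf12a, Mbp, Dcx, relatives of members, up to 3 genes of highest mean TPM per list and the 5 nearest profiles of 4 members; any other is said to be chosen after its values were seen or moves with a member. Some genes the rule names are not reported here. Of the list genes, 2 were matched by an older symbol. Each mouse was treated as an independent sample. The mice were littermates, and litter was not in the fit. Positions came from GENCODE M21 on GRCm38 and promoters from RefSeq. Python 3.11.15, pandas 2.3.3, numpy 2.4.6 and matplotlib 3.10.9 were used. Alternatives were other pseudocounts, filters, scalings, variance models, array weights, a replicate block and left-out libraries.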

Additional observations from a re-analysis of the deposited data

Results flagged for a closer look

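Of 22 groups of 4 libraries (10 members and Tnfrsf12a, each in WT and KO), 2 held a library set apart from the rest by a gap larger than Dixon's critical value for that size of group. For independent, normally spread values chance flags about 1 group in 20. That rate need not hold here, since TPM was used without a log scale, members were chosen with values known, and groups share libraries. Both were the library labelled WT 4. Lhx2 was at 42.5 TPM there, with the next WT library at 10.1 TPM, a gap of 0.831 of the range. Lhx9 was at 159 TPM, with the next WT library at 19.6 TPM, a gap of 0.965 of the range. For both genes the library labelled WT 4 lay within the KO range, and the same library had Tnfrsf12a below all 4 KO libraries. Tnfrsf12a was low in every library, at most 5.48 TPM, so its level does not settle genotype.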

How the results depend on the processing

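The count of genes past an adjusted p of 0.05 in limma was 0 and moved in 4 settings other than the loss of a single library. It was 1 without trend and robust estimation (Snora62, higher), 10376 with array weights, 1 without WT 1 and WT 2 (Mir199a-2, lower) and, chosen after seeing the data, 1 without WT 3 and KO 3 (Hist1h4j, higher). Leaving out each library gave 0 to 1 (Mir666, lower, without KO 3). Array weights were 0.13 for WT 3 and 0.138 for the library labelled WT 4, near 0, and with them 7 of the 10 members and Tnfrsf12a (−1.33) passed, as did most genes. The weights of WT 1 and WT 2 were 1.71 and 3.43, so the WT side of that fit rested mainly on the high-Mbp libraries. Tnfrsf12a ranged from −1.03 to −0.42 over left-out libraries. Members past the threshold numbered 0 under all settings other than array weights. Directions turned for Rora (0.48) and Lef1 (0.12) without WT 1 and WT 2, for Zic1 with unweighted trimmed-mean (TMM) factors (−0.03), and on leaving out single libraries for Lef1 (−1.14 to 0.01) and Zic1 (−0.38 to 1.09). The other 182 member values under alternatives kept their direction. The median of all genes was 0.102 as deposited, 0.002 after quantile normalization and −0.006 with TMM factors. At an unadjusted p under 0.05, KO was higher for 851 genes and lower for 372 as deposited, and those numbers were 750 and 555 on quantile-normalized values and 775 and 466 with TMM. Same-numbered WT and KO libraries share only a number (correlations of deviations across genes −0.1, 0.074, 0.065 and 0.027), and with the replicate block the count stayed at 0, Tnfrsf12a was at −0.63, and no member passed. The unknown depth limits what can be said of genes at low TPM.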
